A study of Mus musculus with 6 samples.

Results

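Smooth muscle contracts when myosin motors pull on actin filaments that are anchored to the membrane at adhesion sites. Calcium and calmodulin switch on myosin light chain kinase, which phosphorylates the regulatory myosin light chain, and myosin phosphatase reverses the step. Cells of every type run a similar machine from non-muscle actin, myosin and tropomyosin genes, whereas differentiated smooth muscle adds its own paralogues. Most smooth muscle paralogues are driven by serum response factor (SRF) together with its co-activator myocardin, and their loss is a textbook sign of smooth muscle cells leaving the contractile state.

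Here 37 genes of this machinery were followed, chosen by gene symbol from the 54532 genes of the deposited table and all found there. Of these, 13 were smooth-muscle-restricted (Acta2, Actg2, Tagln, Cnn1, Myh11, Myl9, Mylk, Smtn, Lmod1, Des, Synpo2, Myocd and Ppp1r14a). A further 5 genes make smooth muscle as well as non-muscle products by splicing or are used in both settings (Tpm1, Tpm2, Cald1, Vcl and Myl6). The non-muscle paralogues numbered 10 (Actb, Actg1, Tagln2, Cnn2, Cnn3, Myh9, Myh10, Tpm3, Tpm4 and Vim), the adhesion and cross-linking genes 5 (Flna, Actn1, Actn4, Tln1 and Zyx) and the general regulators 4 (Srf, Ppp1r12a, Rock1 and Rock2). The grouping is by textbook role and is not sharp, since Mylk also encodes a longer product outside muscle and Myl9 is expressed in many adherent cells.

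The data were 6 RNA-seq libraries of cultured mouse cells labelled as vascular smooth muscle cells, genotype WT, which had received an adenoviral vector with either a control plasmid (Ad-Con, 3 libraries) or a plasmid for overexpression of pyruvate dehydrogenase kinase 4 (Ad-PDK4, 3 libraries). Per the study, the cells were isolated from the abdominal aorta of wild-type mice by collagenase digestion, checked for purity by staining for ACTA2, passaged, and treated with angiotensin II in both groups. The labels do not mention angiotensin II, and cells without it or without a vector were not analysed here. The methods describe a PDK4 plasmid in the pEnCMV vector with an HA tag, without saying whether the adenovirus carries the same cassette, and its promoter is not named. The study calls the 3 libraries of a group biological replicates, and whether these were separate cultures or animals is not stated, so each p-value measures only the spread between these libraries.

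Values are FPKM (fragment counts divided by gene length and library size). A single length is used per gene (3187 bases for Myl6, 6485 for Tpm1), whichever of its transcripts the cells make. Ranks, sums and family shares compare genes with each other and are therefore approximate. Reads assigned to genes, recovered from the FPKM, ranged from 17588942 to 21861872 per library, and no replicate pair agreed within sampling noise. Pdk4 itself, a check of the labels, read 9.50, 10.4 and 10.1 FPKM under the Ad-Con label and 7.67, 7.40 and 7.38 FPKM under the Ad-PDK4 label. It was therefore lower under the overexpression label (log2 fold change -0.42, SE 0.06, limma adjusted p = 0.0011), so that Ad-PDK4 and Ad-Con below name libraries labelled so, and every direction is between labels. Whether transcripts of the vector could be counted on Pdk4 is not given in the sources used here. Among 13423 genes with a mean of at least 0.5 FPKM, 21.8% rose and 20.8% fell from Ad-Con to Ad-PDK4 at a limma adjusted p below 0.05 (42.7% in all), and the median log2 fold change over them was -0.003.

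The label of the cells was first set against the smooth muscle markers themselves. Acta2, the smooth muscle alpha-actin, was abundant, at 78.0 ± 0.950 FPKM in Ad-Con (SD, n = 3), which ranked it 594 of 54532 genes. Myl9, the regulatory myosin light chain, and Smtn, the actin-binding smoothelin, were also present, at 15.4 ± 0.634 and 8.32 ± 0.114 FPKM. The markers that define differentiated smooth muscle most closely were at or near the detection limit. Myh11, the smooth muscle myosin heavy chain, had 2, 2 and 2 reads in the Ad-Con libraries and 10, 7 and 2 in the Ad-PDK4 libraries. Myocd, which encodes myocardin, had 4, 2 and 0 reads against 5, 4 and 4. Tagln, the actin-associated transgelin, had 12, 6 and 20 reads against 16, 4 and 14. For Tagln these few reads do not show how much transcript the cells held, since 67.9% of its exon bases lie under Pcsk7 and Gm48529 on the opposite strand and the strand setting of the counting is not given in the sources used here. In both groups, then, smooth muscle alpha-actin was read at a high level beside at most 10 reads of smooth muscle myosin heavy chain and at most 5 of myocardin in any library.

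Genes used as markers of other cells were read in the same libraries. The fibroblast list holds matrix genes such as Col1a1. Per the study, smooth muscle cells in the synthetic state also make more matrix, so such genes are not specific to fibroblasts. The 8 fibroblast genes summed to 2035 to 2235 FPKM in Ad-Con and 1067 to 1177 FPKM in Ad-PDK4. At an adjusted p below 0.05, 6 of them were lower and 1 higher, where 20.8% and 21.8% of all genes tested were. Col1a1, the type I collagen chain, was the most abundant of them, at 1056 ± 42.4 against 435 ± 49.5 FPKM. Pdgfra, a fibroblast-associated growth factor receptor, differed by -0.05 on the log2 scale (limma adjusted p = 0.54). The gene that rose was Dcn, decorin, at 90.1 ± 8.20 against 161 ± 19.0 FPKM (log2 fold change 0.83, limma adjusted p = 4.0e-04). Of 7 epithelial and mesothelial genes 4 were tested and all 4 fell, beside the same 20.8%. Msln, the mesothelial surface protein mesothelin, had 221 ± 7.22 against 115 ± 4.96 FPKM (log2 fold change -0.94), a level above that of Acta2 in both groups, and Epcam had no read. Macrophage genes summed to 15.0 to 18.1 FPKM against 6.08 to 7.57 FPKM, most of it from Cd68, a lysosomal protein (14.2 against 4.24 FPKM), and Ptprc, Tyrobp, C1qa, C1qb and C1qc had no read in any library. The other macrophage genes did not share the direction of Cd68, since Csf1r, a growth factor receptor, had 11, 23 and 35 reads against 56, 62 and 61, and Lyz2, lysozyme, read 1.51 against 1.98 FPKM without passing the test (limma adjusted p = 0.079). Endothelial genes summed to 1.24 to 1.54 against 1.28 to 1.56 FPKM, with Kdr, a VEGF receptor, the most abundant over all libraries (0.536 against 0.919 FPKM) and Egfl7, a secreted endothelial protein, going the other way (0.706 against 0.381 FPKM), and neither passed the test (limma adjusted p = 0.065 and 0.086). Pecam1 had at most 17 reads and Cdh5 at most 4. Striated muscle genes summed to 0.658 to 0.826 against 0.0828 to 0.264 FPKM, mostly from Tnnt2, the cardiac troponin T (0.426 against 0.0822 FPKM). Acta1 had 9, 7 and 8 against 2, 0 and 0 reads, Actc1 at most 3 and Myod1 none. The fibroblast, mesothelial and striated muscle sums, and Cd68, thus moved with the groups in the direction of Acta2 and Vim, although Dcn rose and Pdgfra did not pass. The part of these genes in the results below was not tested. In bulk RNA, fewer cells of a type and less RNA per cell cannot be told apart.

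**Figure D1:**
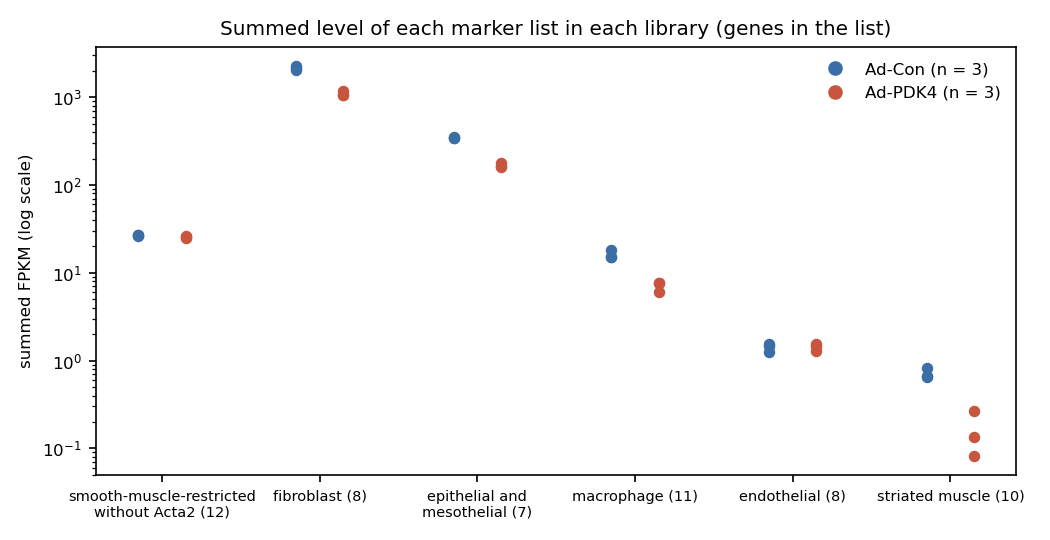
Summed FPKM (log axis) of the smooth-muscle-restricted genes without Acta2 and of 5 lists used as markers of other cells. There is 1 point per library, 3 labelled Ad-Con and 3 labelled Ad-PDK4. The fibroblast, epithelial and mesothelial, macrophage (mostly Cd68) and striated muscle sums did not overlap between the groups and were lower in Ad-PDK4. The restricted sums without Acta2, mostly Myl9 and Smtn, did not overlap either (26.5 to 27.3 against 24.7 to 26.2 FPKM). The endothelial sums overlapped at 1.24 to 1.56 FPKM.

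SRF binds a short palindromic element, the CArG box, which lies close to the start of many actin cytoskeleton genes. RefSeq promoter windows of 300 bases (250 before the annotated start and 50 after it, GRCm38.p6) were found for 31 of the 37 genes by symbol and were searched for an exact CArG box, which reads as a match on both strands. The 6 genes without a window were Actb, Actg2, Tagln, Myh11, Myocd and Rock1, so these were not searched. A box was present in a window of 6 of 31 genes (19.4%), against 488 of 27025 genes overall (1.81%). The 6 stretches that hold one are shown because they belong to genes of 4 of the 5 classes and to genes that moved both ways. Each is read in the direction of its gene, with the bases of the box in capitals.
Myl9, regulatory light chain, chr2:156775288-156775327, plus strand: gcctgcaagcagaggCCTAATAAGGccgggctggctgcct
Myl6, essential light chain, chr10:128493035-128493074, minus strand: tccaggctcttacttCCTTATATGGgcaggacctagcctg
Actg1, gamma-actin, chr11:120348561-120348600, minus strand: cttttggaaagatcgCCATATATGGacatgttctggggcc
Cnn2, non-muscle calponin, chr10:79988529-79988568, plus strand: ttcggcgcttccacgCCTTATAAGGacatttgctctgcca
Vcl, vinculin, chr14:20929156-20929195, plus strand: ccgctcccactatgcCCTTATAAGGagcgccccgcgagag
Srf itself, with 2 boxes, chr17:46556200-46556259, minus strand: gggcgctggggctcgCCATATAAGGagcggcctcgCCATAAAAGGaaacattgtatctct

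The boxes began 161 bases before the start in Myl9, 50 in Myl6, 90 in Actg1, 56 in Cnn2, 227 in Vcl, and 82 and 62 in Srf. Myl6 has windows at different annotated starts. Its box lies in the window farther inside the gene, and the window nearer the gene's first base held none. Cnn2 and Vcl carried the same 10 bases. Genes with a box did not share a direction, since Vcl, Srf and Cnn2 were higher in Ad-PDK4, Actg1 and Myl6 were lower, and Myl9 did not pass the test, as given gene by gene below. A match is a stretch of letters and not a shown binding site, and the windows of Acta2, Cnn1 and Des held no exact box within these 300 bases.

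Of the 37 genes, 28 reached the mean of 0.5 FPKM and were tested. Going from Ad-Con to Ad-PDK4, 13 of the 28 rose and 6 fell, 19 called in all, where 21.8%, 20.8% and 42.7% of all genes tested were called, and 9 did not pass. Differences were small: with a limit of 2-fold added, Acta2 and Vim were lower and no gene was higher, against 2.68% lower and 3.95% higher (6.63% in all) among all genes tested. The groups did not overlap in 20 of the 28, where 54.3% of all genes tested did not. Apart from Lmod1, the tested members had means of at least 8.32 FPKM in Ad-Con. The shares over all genes tested, here and below, include genes down to 0.5 FPKM and were not matched for level. The median log2 fold change of the 28 was 0.18. By class the median was -0.16 over the 4 tested smooth-muscle-restricted genes, 0.01 over the 5 genes with products of both kinds, 0.10 over the 10 non-muscle paralogues, 0.40 over the 5 adhesion and cross-linking genes and 0.32 over the 4 regulators.

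**Figure D2:**
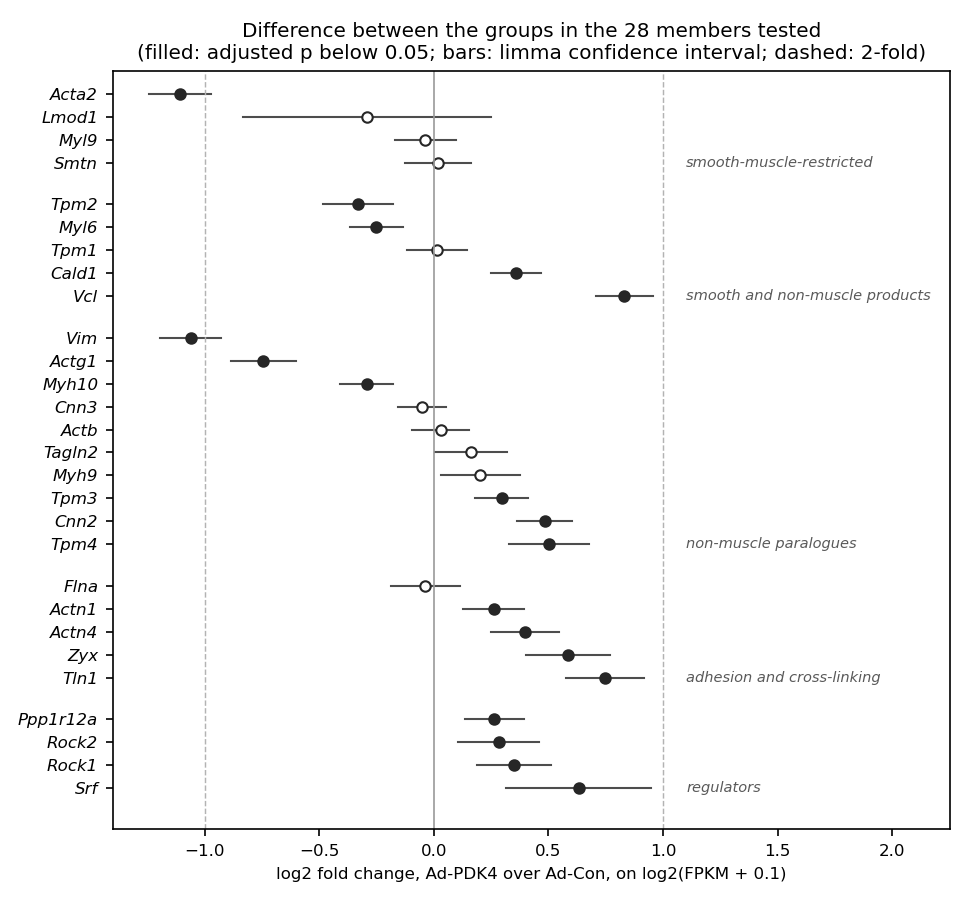
Log2 fold change of Ad-PDK4 over Ad-Con on the log2(FPKM + 0.1) scale for the 28 tested genes, grouped by class, with 95% intervals from limma, filled points at an adjusted p below 0.05 and dashed lines at 2-fold. Acta2 (-1.11) and Vim (-1.06) lie farthest to the left and Vcl (0.83) and Tln1 (0.75) farthest to the right, and the 4 regulators and 4 of the 5 adhesion and cross-linking genes lie above 0.

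Among the smooth-muscle-restricted genes, Acta2 alone passed the test. It read 76.9, 78.7 and 78.4 FPKM in Ad-Con and 33.5, 38.0 and 37.2 FPKM in Ad-PDK4, so that its rank among all genes went from 594 to 1553. The libraries of a group lay close together and the groups were far apart (log2 fold change -1.11, SE 0.06, 95% interval -1.24 to -0.97, limma adjusted p = 5.3e-06). No stretch of 100 bases of its transcripts was shared with another gene.

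Myl9 behaved otherwise. It read 15.5, 16.0 and 14.8 FPKM against 14.8, 15.7 and 14.5 FPKM, with overlapping groups (log2 fold change -0.04, 95% interval -0.17 to 0.10, limma adjusted p = 0.64). Smtn read 8.20, 8.35 and 8.42 FPKM against 8.23, 8.95 and 8.13 FPKM, again with overlap (0.02, 95% interval -0.12 to 0.16, limma adjusted p = 0.84). For both genes the interval does not reach a fall of the size seen in Acta2. Antisense genes overlap 16.3% of the exon bases of Smtn, among them Gm11946, which had at most 4 reads in any library. Lmod1, leiomodin, which nucleates actin filaments in smooth muscle, had 64, 52 and 44 reads against 36, 44 and 50, and its interval was wide (log2 fold change -0.29, 95% interval -0.83 to 0.25, limma adjusted p = 0.36).

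The other 9 restricted genes had a mean below 0.5 FPKM over all 6 libraries and were not tested. The groups did not overlap in 4 of them, against 12.7% of the 11779 genes with reads below that minimum. That background was not matched for depth and takes in genes with as few as 1 read in all libraries together. Mylk, the myosin light chain kinase, had by far the most reads of the 9, with 188, 168 and 122 in Ad-Con and 27, 28 and 24 in Ad-PDK4. Its mean was 0.756 FPKM in Ad-Con, above the minimum, and 0.123 FPKM in Ad-PDK4, and the counts and median of the tested genes leave it out. Its ratio of mean FPKM was 0.163, and in a fit without the minimum it was lower (log2 fold change -1.93, SE 0.25, limma adjusted p = 0.002), where 9.93% of 25202 genes were lower. The kinase was thus lower while the light chain it phosphorylates, Myl9, was not found to differ. Des, the muscle intermediate filament desmin, had 13, 10 and 16 reads against 4, 3 and 3, and Cnn1, the smooth muscle calponin, had 30, 20 and 22 against 17, 8 and 14. Neither passed in the fit without the minimum (limma adjusted p = 0.062 and 0.12).

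Ppp1r14a, which encodes the phosphatase inhibitor CPI-17, had 2, 5 and 6 reads against 10, 7 and 13, higher in every Ad-PDK4 library but not past the test without the minimum (limma adjusted p = 0.15). Actg2, the enteric smooth muscle gamma-actin, had 18, 5 and 12 reads against 8, 0 and 4. Synpo2, the actin-bundling synaptopodin 2, had 20, 27 and 50 against 29, 16 and 60. In these last 2 genes, and in Tagln, Myh11 and Myocd, the groups overlapped, and differences were not detectable at this depth. Summed over the 13 restricted genes, FPKM came to 104 to 106 in Ad-Con and 59.0 to 64.2 in Ad-PDK4. Without Acta2 it came to 26.5 to 27.3 and 24.7 to 26.2, most of it from Myl9 and Smtn.

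**Figure D3:**
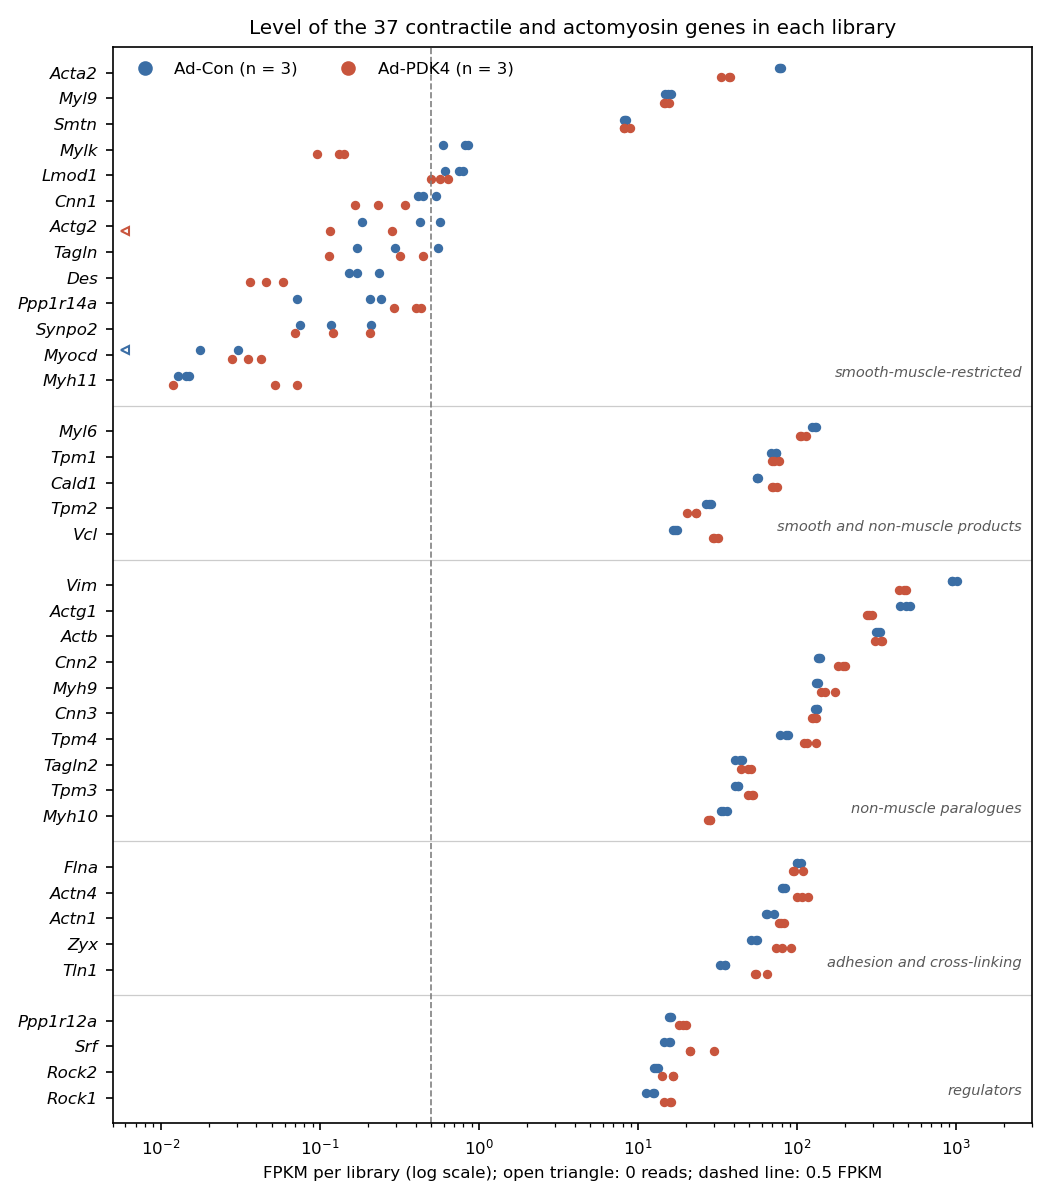
FPKM of the 37 genes in each library (log axis), with 1 point per library, 3 labelled Ad-Con and 3 labelled Ad-PDK4, ordered by class. Smooth-muscle-restricted genes other than Acta2, Myl9 and Smtn lie below 1 FPKM, whereas the non-muscle paralogues lie between 27.6 FPKM (Myh10) and 1018 FPKM (Vim).

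The non-muscle actins were the most abundant actins and did not move together. Actg1, cytoplasmic gamma-actin, read 482, 443 and 510 FPKM in Ad-Con and 277, 295 and 284 FPKM in Ad-PDK4, without overlap (log2 fold change -0.74, SE 0.06, limma adjusted p = 5.5e-05). Actb, cytoplasmic beta-actin, read 314, 321 and 334 FPKM against 310, 344 and 335 FPKM, with the groups overlapping (0.03, 95% interval -0.10 to 0.16, limma adjusted p = 0.69). Gamma-actin was thus above beta-actin in every Ad-Con library and below it in every Ad-PDK4 library. Of the 100-base stretches of Actg1, 29.9% also occur in 6 other genes, among them the pseudogene Actg-ps1, and how reads with several matches were counted is not given in the sources used here, so its level is uncertain to that extent.

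Within the actin family, Actg1 made up 54.3 ± 1.56% of the summed FPKM in Ad-Con and 43.8 ± 0.707% in Ad-PDK4, whereas Actb made up 36.7 ± 1.19% and 50.6 ± 0.587% (SD, n = 3). Acta2 and Actg2 together made up 8.93 ± 0.411% and 5.58 ± 0.120%, and the family sum went from 880 ± 40.1 to 652 ± 28.9 FPKM. All 3 shares separated the groups, with an exact two-sided permutation p of 0.1 each, the smallest that 3 against 3 libraries can give. Such shares were computed for 6 families, and after adjustment over the 6 muscle shares the exact p was 0.15, and over the 18 shares of single genes 0.14.

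Tropomyosins, which lie along the actin filament and gate its access to myosin, also had a lower share of the muscle-type genes in Ad-PDK4. Tpm1 read 73.5, 68.3 and 73.4 FPKM against 69.3, 71.6 and 76.5 FPKM and did not pass the test (log2 fold change 0.01, 95% interval -0.11 to 0.14, limma adjusted p = 0.85). Tpm2 read 28.8, 26.8 and 27.9 FPKM against 20.3, 23.0 and 23.0 FPKM and was lower (-0.33, SE 0.07, limma adjusted p = 0.0048). The other two tropomyosin genes, which make non-muscle forms, were both higher. Tpm3 read 42.8, 40.6 and 42.6 FPKM against 49.5, 52.5 and 52.9 FPKM (0.30, SE 0.05, limma adjusted p = 0.0022), and 15.8% of its 100-base stretches also occur in the copy Tpm3-rs7. Tpm4 read 85.6, 78.2 and 87.3 FPKM against 110, 116 and 131 FPKM (0.50, SE 0.08, limma adjusted p = 0.0013). Tpm4 went from 37.1 ± 0.590% to 44.8 ± 1.23% of the family, Tpm1 from 31.8 ± 0.0999% to 27.4 ± 0.419% and Tpm2 from 12.4 ± 0.234% to 8.35 ± 0.367%, each with an exact permutation p of 0.1. Tpm1 and Tpm2 together were 44.2 ± 0.332% and 35.7 ± 0.501% of it, without overlap and also at the smallest exact permutation p of 0.1. All these shares are set against a larger family sum in Ad-PDK4 (225 ± 9.83 and 265 ± 17.2 FPKM). Since Tpm1 and Tpm2 are spliced into muscle and non-muscle forms and the values are per gene, the forms themselves were not measured.

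Calponins, which bind actin and slow its sliding over myosin, differed in Cnn2 but not detectably in Cnn3. Cnn2 read 135, 138 and 140 FPKM in Ad-Con and 181, 202 and 195 FPKM in Ad-PDK4 (log2 fold change 0.48, SE 0.05, limma adjusted p = 2.3e-04). Cnn3 read 130, 133 and 134 FPKM against 126, 124 and 132 FPKM, with overlap (-0.05, 95% interval -0.16 to 0.05, limma adjusted p = 0.39). The genes were nearly equal in Ad-Con, at 50.9 ± 0.0271% and 48.9 ± 0.0440% of the family, and stood at 60.1 ± 1.57% and 39.8 ± 1.54% in Ad-PDK4 (exact permutation p = 0.1 each), the share of Cnn3 being set against a larger sum (270 ± 4.43 and 320 ± 10.8 FPKM). Cnn1 was 0.173 ± 0.0264% and 0.0776 ± 0.0304% of it, on the few reads given above.

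Myosin heavy chains are the motor itself. Myh9, non-muscle myosin IIA, read 136, 134 and 132 FPKM against 150, 173 and 141 FPKM, which did not overlap but missed the threshold (log2 fold change 0.20, SE 0.07, limma adjusted p = 0.061). It passed with a minimum of 5 FPKM (limma adjusted p = 0.039), as TPM (0.029), under quantile normalization (0.037), with limma-voom (0.0053) and without Ad-PDK4 replicate 3 (0.024). Among the alternatives in which it did not pass were no minimum (limma adjusted p = 0.12), plain moderation (0.12), the replicate block (0.062) and leaving out Ad-Con replicate 1 (0.11). Myh10, non-muscle myosin IIB, read 34.1, 36.0 and 33.4 FPKM against 27.6, 28.5 and 28.4 FPKM and was lower (-0.29, SE 0.05, limma adjusted p = 0.0024). As a share of the family, Myh9 went from 79.5 ± 0.652% to 84.5 ± 1.29% and Myh10 from 20.5 ± 0.651% to 15.5 ± 1.30% (exact permutation p = 0.1 each). Myh11 was 0.00839 ± 0.000693% and 0.0246 ± 0.0169%, with overlap and an exact p of 0.4. Myl6, the essential light chain of these motors, read 125, 132 and 130 FPKM against 106, 113 and 105 FPKM and was lower (-0.25, SE 0.05, limma adjusted p = 0.0049).

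**Figure D4:**
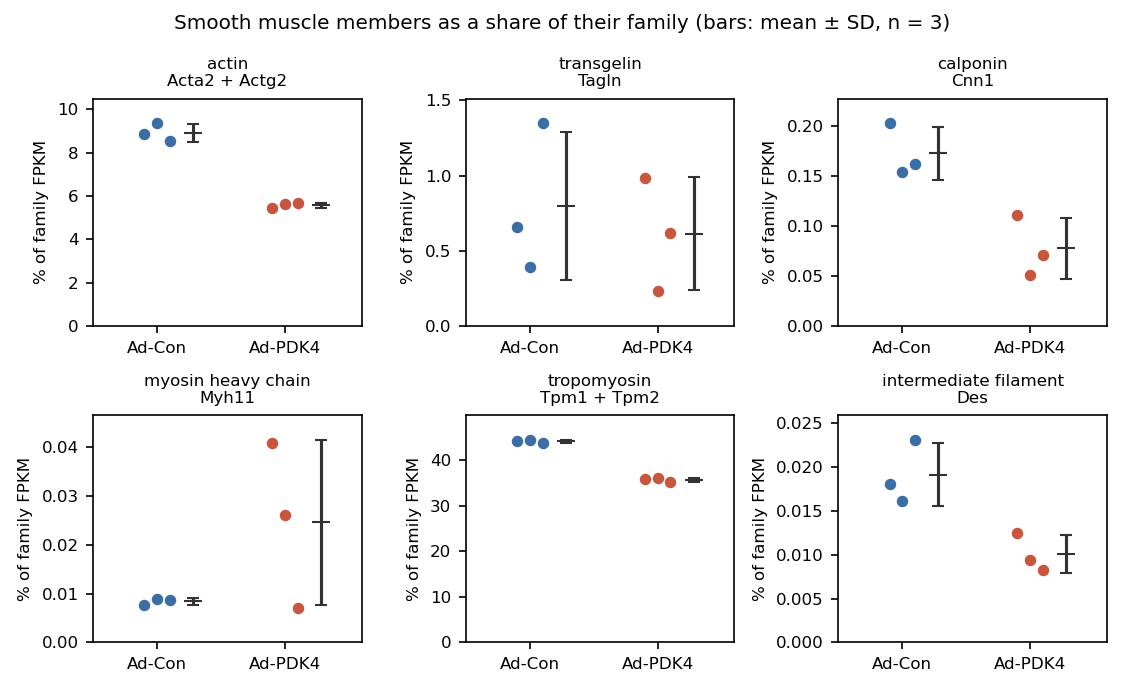
Share of each family's summed FPKM (percent, a separate linear axis from 0 in each panel) held by its smooth muscle genes, with 1 point per library and bars at the mean ± SD (n = 3). For tropomyosin these are Tpm1 and Tpm2, which also make non-muscle forms. The actin, calponin, tropomyosin and intermediate filament shares did not overlap and were lower in Ad-PDK4 (actin 8.93% against 5.58%, tropomyosin 44.2% against 35.7%), whereas the transgelin and myosin heavy chain shares overlapped. The calponin and intermediate filament shares rest on at most 30 reads of Cnn1 and 16 of Des in a library. The transgelin share rests on Tagln, whose level is uncertain because other genes overlap its exons.

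Vim, the intermediate filament protein vimentin of mesenchymal cells, was the most abundant of the 37 genes. It read 940, 940 and 1018 FPKM in Ad-Con and 470, 484 and 436 FPKM in Ad-PDK4, and its rank among all genes went from 26 to 55. The fall was of nearly the size seen in Acta2 (log2 fold change -1.06, SE 0.06, 95% interval -1.19 to -0.93, limma adjusted p = 6.5e-06). Desmin, its muscle counterpart, was 0.0191 ± 0.00359% and 0.0101 ± 0.00216% of their sum. Smooth muscle actin and vimentin were therefore lower in the same libraries. So were the mesothelial sum and the fibroblast sum, in which Dcn rose, and the part of these in the fall was not tested. Tagln2, the non-muscle transgelin, read 44.9, 43.8 and 40.6 FPKM against 44.4, 49.3 and 51.2 FPKM and did not pass (0.16, 95% interval 0.006 to 0.32, limma adjusted p = 0.089). It passed as TPM (limma adjusted p = 0.044), with limma-voom (0.043) and without Ad-PDK4 replicate 1 (0.043). Among the alternatives in which it did not pass were quantile normalization (limma adjusted p = 0.25), no minimum (0.16) and plain moderation (0.15).

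Of the 5 adhesion and cross-linking genes, 4 rose and Flna did not pass the test, where 21.8% of all genes tested rose. Vcl, grouped above with the genes used in both settings, was described here because it encodes vinculin, which ties actin to integrin and cadherin adhesions. It read 17.2, 17.5 and 16.5 FPKM in Ad-Con and 29.5, 31.9 and 29.9 FPKM in Ad-PDK4. This was the largest rise among the 28 tested genes (log2 fold change 0.83, SE 0.05, 95% interval 0.71 to 0.96, limma adjusted p = 1.6e-05). Ap3m1 overlaps 25.5% of the exon bases of Vcl on the opposite strand, and Ap3m1 itself read 7.74 ± 0.516 against 7.64 ± 0.512 FPKM (-0.02, limma adjusted p = 0.88).

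Tln1, talin, which links integrins to vinculin and actin, read 35.0, 35.3 and 32.7 FPKM against 54.9, 64.4 and 54.4 FPKM (log2 fold change 0.75, SE 0.07, limma adjusted p = 1.5e-04). Tln1 lies 7753 bases from Tpm2 on chromosome 4, on the same strand, and these neighbours moved in opposite directions. Creb3, which overlaps 3.67% of the exon bases of Tln1 on the opposite strand, was higher too (0.68, limma adjusted p = 2.3e-04). Zyx, zyxin, a LIM protein of tensed actin bundles, read 51.7, 55.6 and 56.1 FPKM against 80.7, 91.4 and 74.2 FPKM (0.59, SE 0.08, limma adjusted p = 7.5e-04). For vinculin, talin and zyxin alike, the lowest Ad-PDK4 library lay above every Ad-Con library.

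Of the actin cross-linkers, both alpha-actinins were higher. Actn4, the non-muscle alpha-actinin 4, read 80.3, 84.5 and 81.7 FPKM against 108, 118 and 101 FPKM (log2 fold change 0.40, SE 0.06, limma adjusted p = 0.0017). Actn1, alpha-actinin 1, read 65.1, 71.1 and 63.7 FPKM against 77.6, 83.0 and 78.9 FPKM (0.26, SE 0.06, limma adjusted p = 0.0078). Flna, filamin A, was the exception in this class, with 101, 106 and 99.4 FPKM against 95.0, 109 and 95.1 FPKM and overlapping groups (-0.04, 95% interval -0.19 to 0.11, limma adjusted p = 0.68). Cald1, caldesmon, an actin-binding brake on myosin, read 55.7, 56.8 and 55.6 FPKM against 70.9, 69.7 and 75.1 FPKM and was higher (0.36, SE 0.05, limma adjusted p = 6.6e-04).

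The 4 regulators were all higher in Ad-PDK4, where 21.8% of all genes tested were. Srf read 15.8, 15.9 and 14.7 FPKM against 21.4, 30.2 and 21.4 FPKM, so that replicate 2 of Ad-PDK4 stood above the other two (log2 fold change 0.63, SE 0.13, limma adjusted p = 0.0082). Without that library the log2 fold change was 0.47 (limma adjusted p = 0.0012). Ppp1r12a, the targeting subunit of myosin phosphatase, read 15.8, 15.6 and 16.2 FPKM against 19.2, 18.1 and 19.9 FPKM (0.26, SE 0.06, limma adjusted p = 0.0061). The kinases encoded by Rock1 and Rock2, which inhibit that phosphatase and so favour contraction, differed in how firm their rise was. Rock1 read 12.7, 11.3 and 12.4 FPKM against 15.8, 14.5 and 16.1 FPKM (0.35, SE 0.07, limma adjusted p = 0.0047). Rock2 read 12.6, 13.3 and 12.9 FPKM against 16.7, 14.1 and 16.7 FPKM (0.28, SE 0.08, limma adjusted p = 0.018), and its call was lost under quantile normalization (limma adjusted p = 0.056) and without Ad-Con replicate 1 (0.061), Ad-Con replicate 3 (0.053), Ad-PDK4 replicate 1 (0.071) or Ad-PDK4 replicate 3 (0.053). The phosphatase subunit and the kinases that oppose it were thus higher in the same libraries, as was Srf, while its co-activator gene Myocd had 5 reads or fewer in every library.

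Other genes of the pathway were read from 4 lists. Of 14 genes for SRF partners and related factors, 13 were tested, 4 rose and 1 fell, beside the 21.8% and 20.8% of all genes tested. Tead1, a factor that binds elements of many muscle promoters, rose from 11.8 ± 0.239 to 22.8 ± 1.21 FPKM (log2 fold change 0.94, limma adjusted p = 1.2e-05), and Nkx3-2, a homeobox factor, rose on low values (0.91, limma adjusted p = 0.0082). Elk3, an ETS factor that forms ternary complexes with SRF, fell from 23.8 ± 0.722 to 19.0 ± 0.312 FPKM (-0.33, limma adjusted p = 0.0013). Of 20 other smooth muscle genes, 11 were tested, 3 rose and 3 fell, 54.5% called in all, where 42.7% of all genes tested were. Cacna1c, the L-type calcium channel of smooth and cardiac muscle, rose from 0.912 ± 0.0713 to 2.60 ± 0.187 FPKM (1.42) and Sncg, gamma-synuclein, rose by 0.87 on the log2 scale. Npnt, the matrix protein nephronectin, fell from 15.7 ± 0.371 to 4.54 ± 0.361 FPKM (-1.77), and Fhl1, a LIM protein of muscle, had a log2 fold change of -0.44. Pln, Kcnmb1 and Pdlim3 had no read in any library.

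Of 14 non-muscle cytoskeletal genes outside the 37, all tested, 7 rose and 4 fell, 78.6% called in all against the same 42.7%. Fscn1, the bundling protein fascin, rose from 82.7 ± 3.12 to 164 ± 8.38 FPKM (0.98), and Myl12b, a non-muscle regulatory light chain, rose by 1.27 on the log2 scale from a low level. Actr3, a subunit of the branching Arp2/3 complex, had a log2 fold change of -0.30, and Nes, the intermediate filament nestin, of -0.87. Of 15 further focal adhesion and LIM genes, all tested, 5 rose and 3 fell (53.3% called), with Bcar1, the adhesion scaffold p130Cas (0.73), and Trip6, a zyxin relative (0.71), rising most, and Tes, testin (-0.62), and Ablim1, an actin-binding LIM protein (-0.36), falling most.

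**Figure D5:**
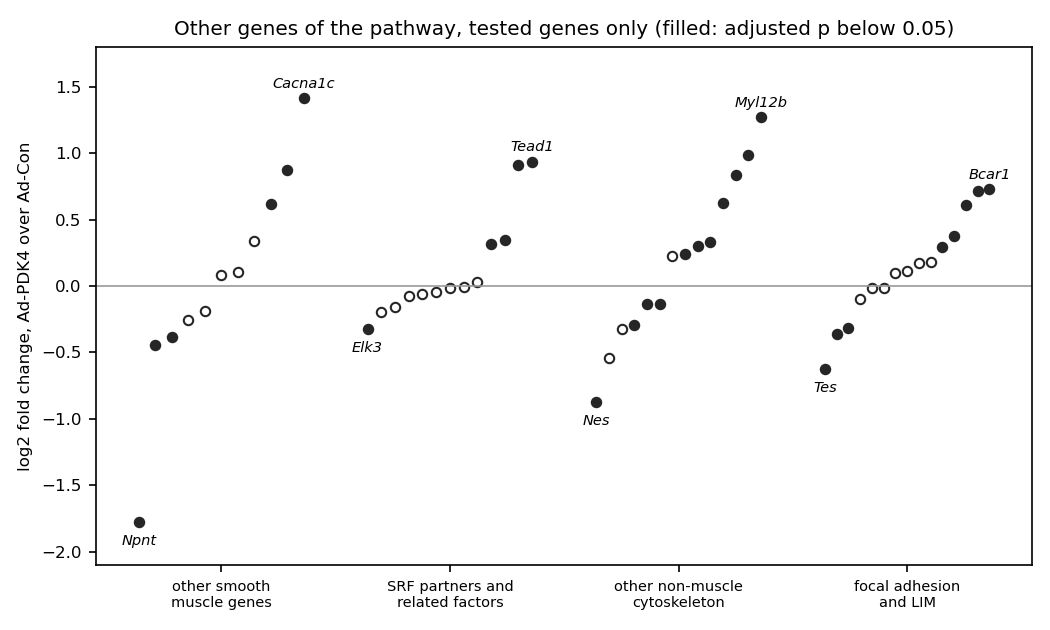
Log2 fold change of Ad-PDK4 over Ad-Con (log2(FPKM + 0.1) scale) for the tested genes of 4 further lists, with 1 point per gene and filled points (the rest open) at a limma adjusted p below 0.05. Each list has called genes on both sides of 0, from -1.77 (Npnt) to 1.42 (Cacna1c).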

How the data were processed

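The deposited values were FPKM for 54532 genes in 6 libraries, which the authors computed with 1 column per library. The submitters' processing notes name CASAVA 1.8, fastp, HISAT2 2.0.5, featureCounts 1.5.0-p3, DESeq2 1.20.0 and GRCm39, but 98.3% of the 54409 genes matched to GENCODE M21 had its GRCm38 coordinates, so GRCm38 is used here. Reads were recovered as FPKM times gene length, and 100% of non-zero values were whole within 0.01 reads. For a gene 1 kb long, each read added 0.0453 to 0.0571 FPKM. A count of 0 allows up to 3 reads, which covers counting error only. The strand setting and the handling of reads with several matches are not given in the sources used here. The labels name a SMARTER kit and the methods a NEBNext kit.

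Groups came from the treatment labels and replicate numbers from the titles. The test was limma 3.58.1 (R 4.3.3) on log2(FPKM + 0.1), with trend and robust moderation, two-sided and without covariates, and Benjamini-Hochberg adjustment over the 13423 genes with a mean of at least 0.5 FPKM. Every adjusted p is from limma unless an exact test is named, and log2 fold changes keep the 0.1 added, which understates changes of low genes. Lists and classes carry no test. Shares of family FPKM were compared by exact two-sided permutation over 20 arrangements of the libraries. Ranks are by mean FPKM in a group. Sharing of 100-base stretches and overlap of exons were computed from GENCODE M21, and promoter windows came from RefSeq. The limma step was tested on simulated data.

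Named were all 37 genes, Pdk4, of each pathway list the 2 largest rises and 2 largest falls past the threshold, and of each marker list the most abundant gene with 9 preset markers. Msln, Tnnt2, Kdr, Cd68 and Col1a1 are those most abundant genes. C1qa, C1qb, C1qc, Csf1r, Lyz2, Dcn, Egfl7, Pln, Kcnmb1, Pdlim3, Ap3m1, Creb3, Pcsk7, Gm48529, Gm11946, Tpm3-rs7 and Actg-ps1 were named after their values or overlaps were seen. So were Mkl1 and Mkl2. A further list of pathway genes is not reported here. The 37 genes, the classes and the lists were chosen with earlier results of these data known.

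The alternatives were pseudocounts of 1 and 0.01, no minimum, a minimum of 5 FPKM, TPM, quantile normalization, rescaling without mtDNA-encoded genes, plain moderation, limma-voom on recovered reads, reads in place of FPKM for shares, the replicate number as a block and leaving out each library.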

Additional observations from a re-analysis of the deposited data

How the results depend on the processing

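Of the 19 called genes, 18 kept direction and call in all 16 alternatives, and Rock2 lost its call in 5. Values that moved were the counts past 2-fold (153 lower with a pseudocount of 1; 258 higher and 114 lower with a minimum of 5 FPKM, where fewer genes were tested), the median of the restricted genes (-0.038 with the minimum of 5), the median of the regulators (0.26 under quantile normalization), and the muscle share differences computed from reads (actin -2.35 and tropomyosin -7.24 percentage points). Leaving out 1 library moved the medians over -0.30 to -0.13 (restricted, lowest without Ad-PDK4 replicate 3), 0.058 to 0.15 (non-muscle, highest without Ad-PDK4 replicate 1) and 0.28 to 0.38 (regulators, highest without Ad-PDK4 replicate 2). Signs turned only in genes that were not called. As TPM, Myl9 was 0.0033 and Flna 0.0035. Under quantile normalization, Smtn was -0.034 and Tpm1 -0.012. Leaving out 1 library gave -0.024 to 0.044 for Smtn (below 0 without Ad-PDK4 replicate 2), -0.025 to 0.046 for Tpm1 (below 0 in 2 cases, Ad-Con replicate 2 or Ad-PDK4 replicate 3 left out) and -0.0017 to 0.074 for Actb (below 0 without Ad-PDK4 replicate 2). The cause was not tested. Replicate numbers do not pair the libraries (correlations of same-numbered deviations -0.046, -0.031 and -0.001), and with the replicate block 13 genes were higher and 6 lower, as without it. Depth limits the 9 genes with a mean below 0.5 FPKM, with at most 188 reads in a library, least so Mylk, which passed without the minimum. For Tagln the exon overlap with other genes given above is a limit apart from depth.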
